A study of Mus musculus with 36 samples.

Results

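The cells described here are the intestinal stem cells (ISC) of 2 single-cell RNA libraries from the small intestine of wild-type C57BL6/2J mice aged 12 months. Members were the cells that the authors' deposited annotation names ISC, matched to the count matrices by library and barcode, and they numbered 158 of 2614 annotated cells. The set 1 library held 78 ISC cells among 1144 annotated cells and the set 2 library held 80 among 1470. The other 7 clusters were named progenitor, secretory progenitor, enterocyte, goblet, Paneth, enteroendocrine (EEC) and tuft. Both libraries carry the same genotype, age and tissue, so the comparisons are between cell clusters within a library and not between conditions. The labels do not state that the libraries came from separate animals, so the spread between them may be technical.

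Intestinal stem cells sit at the base of the crypts of Lieberkühn between Paneth cells and divide to replace the epithelium. Wnt signals, amplified by R-spondin through receptors such as Lgr5, keep them in the stem state, and Notch signals keep them from the secretory fate. Their daughters become rapidly dividing progenitors that move up the crypt and mature into absorptive enterocytes or into the secretory goblet, Paneth, enteroendocrine and tuft cells.

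ISC cells made up 6.82% of annotated cells in set 1 (exact binomial 95% interval 5.43 to 8.44) and 5.44% in set 2 (4.34 to 6.73), a mean of 6.13% ± 0.973 (SD, n = 2 libraries). The 2 intervals overlap. Cell isolation sets such shares too, and its part was not tested. A unique molecular identifier (UMI) marks 1 captured RNA molecule, and ISC cells had a median of 15150 UMIs in set 1 and 16514 in set 2. Progenitors were deeper, with medians of 17367 and 26650 UMIs. ISC cells together gave 1206930 UMIs in set 1 and 1450911 in set 2, and their median mitochondrial share was 5.06% and 9.56%. The libraries shared 0 barcodes. Paneth cells, with medians of 73555 and 67245 UMIs, gave 24.5% of the annotated UMIs of set 1 and 9.24% of those of set 2, so they weigh on every value for "other annotated cells". Levels below are counts per 1000000 UMIs (CPM), from UMIs summed over the cells of a cluster within a library.

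Single-cell clusters are made from expression, so a comparison of ISC cells with other cells is given as a description with no test. A gene was called higher or lower in ISC cells when its CPM ratio was at least 2 or at most 0.5 in each library, and counted as measured when at least 10 UMIs would fall in both groups of each library at equal CPM. All intervals are 95% and cover counting error only. RNA free in the droplets also gives UMIs in cells that do not make it. Lyz1, the Paneth cell lysozyme, had a UMI in 98.7% of ISC cells of set 1 and 82.5% of those of set 2. Its level in ISC cells was 408 and 159 CPM, above 335 and 124.7 CPM in progenitors and 338 and 70.6 CPM in enterocytes and far below 59796 and 62838 CPM in Paneth cells. Levels of Paneth genes in ISC cells are given without reading them as expression, since the part of free RNA was not tested.

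The 4 marker genes were higher in ISC cells than in the pool of all other annotated cells, in both libraries. Lgr5, the R-spondin receptor that marks crypt base stem cells, was seen with 41 UMIs (34.0 CPM, exact Poisson interval 24.4 to 46.1) in set 1 and 93 UMIs (64.1 CPM, 51.7 to 78.5) in set 2. Progenitors had 7.46 and 9.64 CPM, and enterocytes had 0.157 and 0.196 CPM. The next highest clusters were tuft cells in set 1 (16.5 CPM) and Paneth cells in set 2 (23.2 CPM, with tuft cells at 18.9 CPM). Lgr5 was thus higher in ISC cells than in any other cluster of either library, 8.13-fold and 11.3-fold above other annotated cells and 4.55-fold (exact interval 2.91 to 7.11) and 6.65-fold (5.01 to 8.80) above progenitors. A UMI of Lgr5 was found in 25.6% of ISC cells in set 1 and 32.5% in set 2. At 8000 UMIs per cell the share was 19.2% and 26.8%, against 3.94% and 4.17% of progenitors and 0% and 0.212% of enterocytes.

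Smoc2, a secreted matrix protein of the stem cell signature, stood at 113 CPM in set 1 and 124 CPM in set 2, against 32.1 and 28.5 CPM in other annotated cells. Axin2, a feedback inhibitor and standard target of Wnt signalling, stood at 62.1 and 84.1 CPM, against 20.6 and 23.2 CPM. ISC cells were the highest cluster for both genes in both libraries. Ascl2, a transcription factor of the stem cell programme, had 30.7 and 35.2 CPM in ISC cells and 51.7 and 48.2 CPM in tuft cells, so for this gene the tuft cells were above the ISC cells. Its ratio to progenitors was 1.70 in set 1 and 2.82 in set 2. Lgr5 and Ascl2 were too rare to count as measured against other annotated cells.

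**Figure D1:**
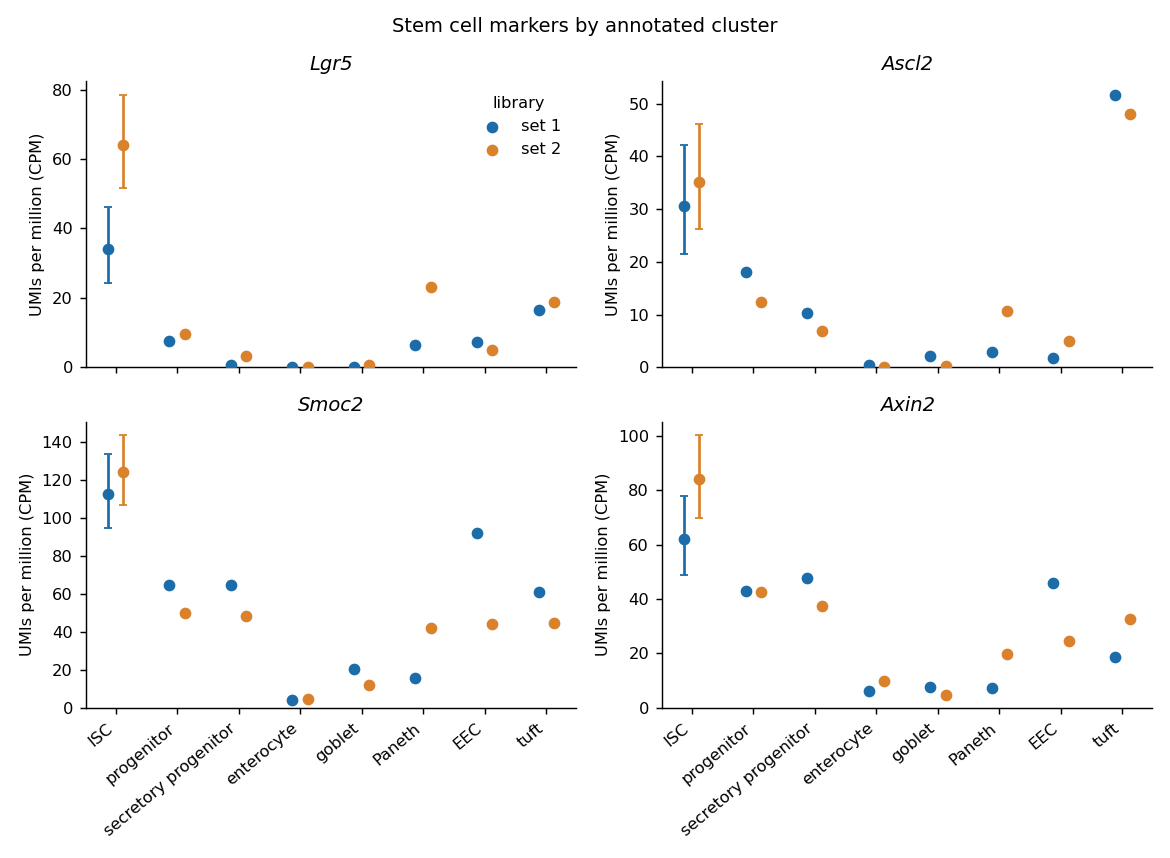
CPM of Lgr5, Ascl2, Smoc2 and Axin2 (y axes, counts per 1000000 UMIs) in the 8 annotated clusters (x axes), set 1 in blue and set 2 in orange; bars on the ISC points are exact 95% Poisson intervals. Lgr5 reached 34.0 and 64.1 CPM in ISC cells, and tuft cells were the highest cluster for Ascl2 with 51.7 and 48.2 CPM.

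The markers did not appear in every cell. At least 1 of the 4 was detected in 67 of 78 ISC cells in set 1 and 68 of 80 in set 2, and all 4 were detected together in 10 and 14 cells. With every cell thinned to 8000 UMIs, which left out 0 and 9 shallower ISC cells, the share with any marker was 73.1% in set 1 and 74.6% in set 2. The same share was 53.9% and 45.5% in progenitors and 9.61% and 14.2% in enterocytes. It was 48.8% and 43.7% in secretory progenitors, 57.1% and 42.9% in EEC and 50% and 47.6% in tuft cells. Paneth cells had 21.4% and 42.6%, and goblet cells 21.9% and 12.1%. Progenitors thus carried these markers often, at lower levels, and so did secretory progenitors, EEC and tuft cells. Summed over the 4 genes, ISC cells had 239 and 307 CPM and progenitors 133 and 114 CPM. Tuft cells had 148 and 144 CPM and EEC 147 and 78.8 CPM.

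Against all other annotated cells, 184 of 7102 measured genes (2.59%) were higher in ISC cells and 565 (7.96%) were lower. The median log2 ratio of all measured genes was 0.21 in set 1 and 0.00 in set 2. ISC cells were the highest of the 8 clusters in both libraries for 118 of the 184 higher genes. For 37 of the others EEC were highest in a library, and for 17 tuft cells were. The count of higher genes was 89 with TMM scaling, which gives less weight to a few very abundant genes, and 116 with Paneth cells left out of the others.

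Ifitm3, an interferon-inducible membrane protein that blocks virus entry, led the ranking of measured genes with 1153 CPM in set 1 and 872 CPM in set 2, against 170 and 140 CPM in other annotated cells. That is 6.79-fold (6.38 to 7.22) and 6.23-fold (5.86 to 6.62) higher, and the gene had a UMI in 94.9% and 93.8% of ISC cells. Cdca7, a Myc-responsive gene with a role in DNA methylation, followed with 186 and 148 CPM, 5.55-fold and 5.25-fold higher. Amica1, a junctional adhesion molecule, had 195 and 140 CPM, 4.79-fold and 4.77-fold higher. All 3 were also above 2-fold against progenitors in both libraries.

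The remaining leading genes are given here by what each is known to do, an order with no test of its own. Genes known from signalling were Pdgfa, a growth factor ligand read by mesenchymal cells (4.39-fold and 5.12-fold), Efna4, an ephrin ligand (4.99-fold and 4.11-fold), Rgmb, a BMP co-receptor (4.33-fold and 4.10-fold), Shisa2, of a family known in Xenopus for holding Wnt and FGF receptors inside the cell (5.24-fold and 4.17-fold), and Rnf43, a ubiquitin ligase that removes Wnt receptors (3.56-fold and 3.74-fold). Next came the growth-promoting transcription factor Myc (4.61-fold and 4.74-fold), the purine synthesis enzyme Paics (4.23-fold and 5.18-fold), the serine synthesis enzyme Phgdh (4.73-fold and 3.91-fold) and the nucleoside diphosphate kinase Nme4 (3.75-fold and 3.63-fold). Others were the sodium, potassium and chloride cotransporter Slc12a2 (3.63-fold and 3.68-fold), the chloride channel regulator Clca3b (4.71-fold and 3.59-fold) and the cholesterol-esterifying enzyme Soat1 (5.15-fold and 3.62-fold). Ung, which removes uracil from DNA, Mcm6, a replicative helicase subunit, Dtl, which directs turnover of replication licensing factors, Arid5b, a DNA-binding protein, and Smoc2 completed the 20. ISC cells were the highest cluster in both libraries for each of these 20 genes.

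**Figure D2:**
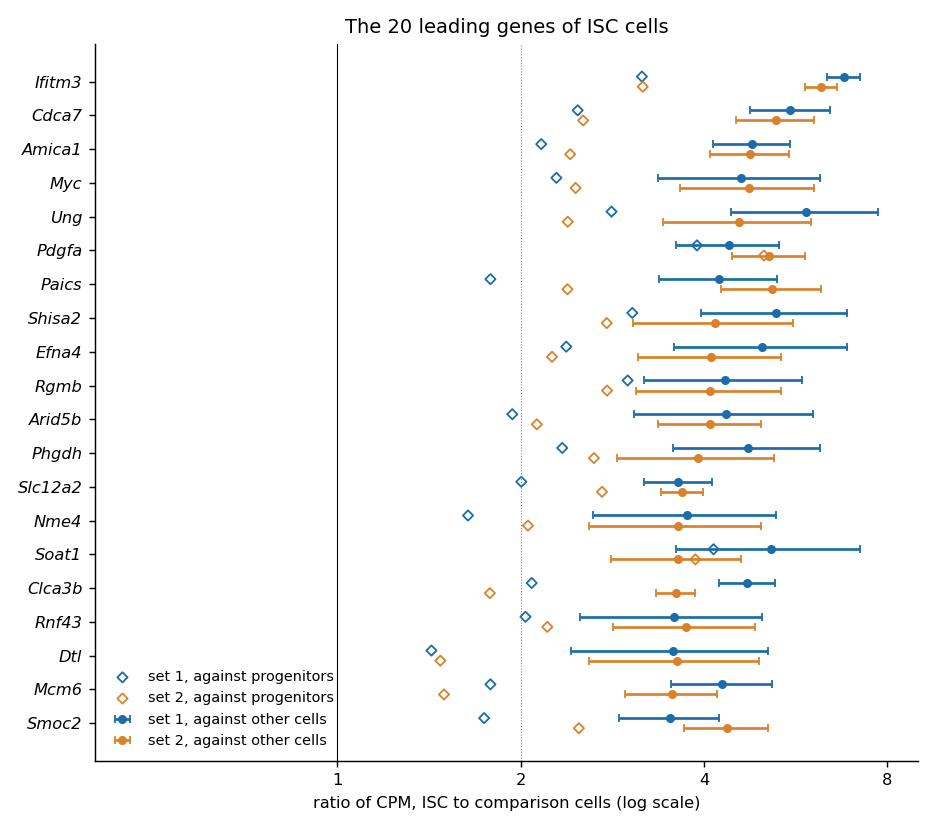
CPM ratio (x axis, log scale) of ISC cells to other annotated cells (filled points with exact 95% intervals) and to progenitors (open diamonds) for the 20 leading genes (y axis), set 1 in blue and set 2 in orange. Among measured genes Ifitm3 ranked at the top by the less extreme library, with ratios of 6.79 and 6.23, and most diamonds lie to the left of their points.

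A list of 30 genes known from stem cell signatures had 17 measured members, of which 13 were higher than in other annotated cells and 0 were lower. The median log2 ratio of the 17 was 1.73 in set 1 and 1.51 in set 2. Besides those named above, Sox9, a crypt transcription factor, was 2.34-fold and 2.76-fold higher, and Lrig1, a brake on ErbB receptors, was 2.52-fold and 2.75-fold higher. Sox9 was nonetheless highest in tuft cells, with 289 and 232 CPM against 76.2 and 106 CPM in ISC cells. Prom1, a membrane glycoprotein used as a crypt marker, had ratios of 0.896 and 0.734 and was not called. The list's other 13 members were too rare to count as measured. Among them Igfbp4, a binding protein for insulin-like growth factors, had 49.7 and 57.2 CPM, 8.31-fold and 7.63-fold above other annotated cells, and Msi1, an RNA-binding protein, had 29.8 and 13.8 CPM, 8.48-fold and 6.29-fold above them.

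Olfm4, a secreted glycoprotein and one of the strongest stem cell markers of the crypt, differed between the libraries. ISC cells held 24 UMIs (19.9 CPM) in set 1 and 419 UMIs (289 CPM) in set 2, in 20.5% and 71.2% of cells. The other annotated cells moved the same way, with 2.46 and 22.0 CPM, so the ratio was 8.08 (4.79 to 13.2) in set 1 and 13.1 (11.7 to 14.7) in set 2. ISC cells were the highest cluster for Olfm4 in both libraries.

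Of 8 measured Wnt targets, 4 were higher than in other annotated cells and 0 were lower: Myc, Sox9, the cell adhesion receptor Cd44 (2.97-fold and 2.54-fold) and the transcription factor Sox4 (3.06-fold and 4.18-fold). With TMM scaling 3 were higher. Against progenitors 2 of 8, Myc and Sox9, were higher. The list summed to 916 and 1193 CPM in ISC cells and to more in EEC, 1095 and 1213 CPM. Of 5 measured receptors, 0 were called, which at shares of 2.59% and 7.96% of all genes is no result about receptors, with Lgr4 at ratios of 1.35 and 1.27 and Fzd5 at 0.788 and 0.732. Likewise 0 of 9 measured intracellular members were called, among them Ctnnb1, the transcriptional effector beta-catenin, at 1.09 and 1.00. The 12 Wnt and R-spondin ligands listed summed to 2.49 and 6.89 CPM in ISC cells, and 0 of them could be measured. Of 6 measured Notch pathway genes, 1 was higher and 4 were not called. The other 1, Atoh1, passed the filter on low counts only through the other annotated cells, so it is given by value and not counted. The Notch target Hes1, a repressor of the secretory fate, had 99.4 and 82.7 CPM, 3.03-fold and 2.29-fold above other annotated cells. Atoh1, the secretory fate factor that Hes1 represses, had 1 and 7 UMIs in ISC cells, with ratios of 0.0331 (0.000835 to 0.185) and 0.112 (0.0450 to 0.232). Hes1 was not called against progenitors, with ratios of 1.40 and 1.34, and Atoh1 could not be measured there.

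Cell cycle genes split by phase. DNA replication genes, which license and copy the genome, had 15 of 30 measured members higher than in other annotated cells and 0 lower, with a median log2 ratio of 1.16 in set 1 and 1.03 in set 2. The 6 subunits of the replicative helicase, Mcm2 to Mcm7, were all among them. Mcm6 had 112 and 102 CPM, 4.28-fold and 3.55-fold higher, and Mcm2 had 61.3 and 51.0 CPM, 5.11-fold and 3.22-fold higher. With TMM scaling, or with Paneth cells left out, 11 of the 30 were above 2-fold. Mitosis genes, which build the spindle and separate chromosomes, had 0 of 31 measured members higher and 17 lower, with medians of -1.33 and -1.51. Of all genes, 2.59% were higher and 7.96% lower, the background for both lists. Some of the 17, such as Aurkb with 1 and 4 UMIs in ISC cells, passed the filter on low counts only through the other cells. By summed CPM of mitosis genes, ISC cells stood above enterocytes, goblet and Paneth cells in both libraries. They stood below progenitors, secretory progenitors, EEC and tuft cells.

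For mitosis genes the contrast with progenitors was sharper, though a smaller share of all genes was called. Against that cluster 40 of 7594 measured genes (0.527%) were higher in ISC cells and 255 (3.36%) were lower, and the median log2 ratio of all genes was -0.18 and -0.16. Of the 35 mitosis genes, 34 were lower and 0 were higher, with a median of -2.82 in set 1 and -2.89 in set 2. All 35 listed genes were measured, so the median leaves none out. Some, such as Aurkb with 1 and 4 UMIs in ISC cells, passed the filter on low counts only through progenitors. Their calls could go 1 way only, so the count of 34 is a description. The sums that follow do not use the filter. Summed over the list, ISC cells had 1309 and 1708 CPM, and progenitors had 4822 and 6338 CPM. Top2a, a DNA topoisomerase of dividing cells, had 21.5 and 33.8 CPM in ISC cells against 261 and 379 CPM, 12.1-fold and 11.2-fold lower. Mki67, the standard marker of cycling cells, had 32.3 and 46.2 CPM against 151 and 279 CPM, 4.66-fold and 6.04-fold lower. ISC cells were still above enterocytes, which had 3.76 and 9.33 CPM of Mki67.

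DNA replication genes did not share that gap. Of 34 measured against progenitors, Ung was higher, the ribonucleotide reductase subunit Rrm2 was lower, and the median log2 ratio was -0.03 in set 1 and -0.09 in set 2. That median is near 0 and its sign depends on the scaling, since DESeq2 size factors gave 0.11 and 0.02. The list summed to 1713 and 1843 CPM in ISC cells and to 1661 and 1957 CPM in progenitors. Secretory progenitors had 1515 and 1468 CPM, and enterocytes had 215 and 253 CPM. High levels of this list were thus shared with both progenitor clusters and are not particular to ISC cells.

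Single cells showed the same split. At 8000 UMIs per cell, the summed mitosis UMIs of ISC cells had a median of 8 in set 1 (range 0 to 44) and 7 in set 2 (0 to 46), against 38 and 47.5 in progenitors. The summed DNA replication UMIs had medians of 13.5 (range 2 to 37) and 13 (2 to 45) in ISC cells, against 10 and 12 in progenitors. The distributions of mitosis sums overlapped, more so in set 2. The upper quartile of ISC cells was 12 in set 1 and 22 in set 2, and the lower quartile of progenitors was 22 and 20.75. A mitosis sum of at least 50 UMIs was reached by 0 ISC cells and by 102 of 330 and 163 of 336 progenitors. A UMI of Mki67 was found in 17.9% and 25.4% of ISC cells at that depth and in 59.4% and 67.6% of progenitors. Enterocytes had 2.96% and 5.10%, and the part of free RNA in these shares was not tested.

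**Figure D3:**
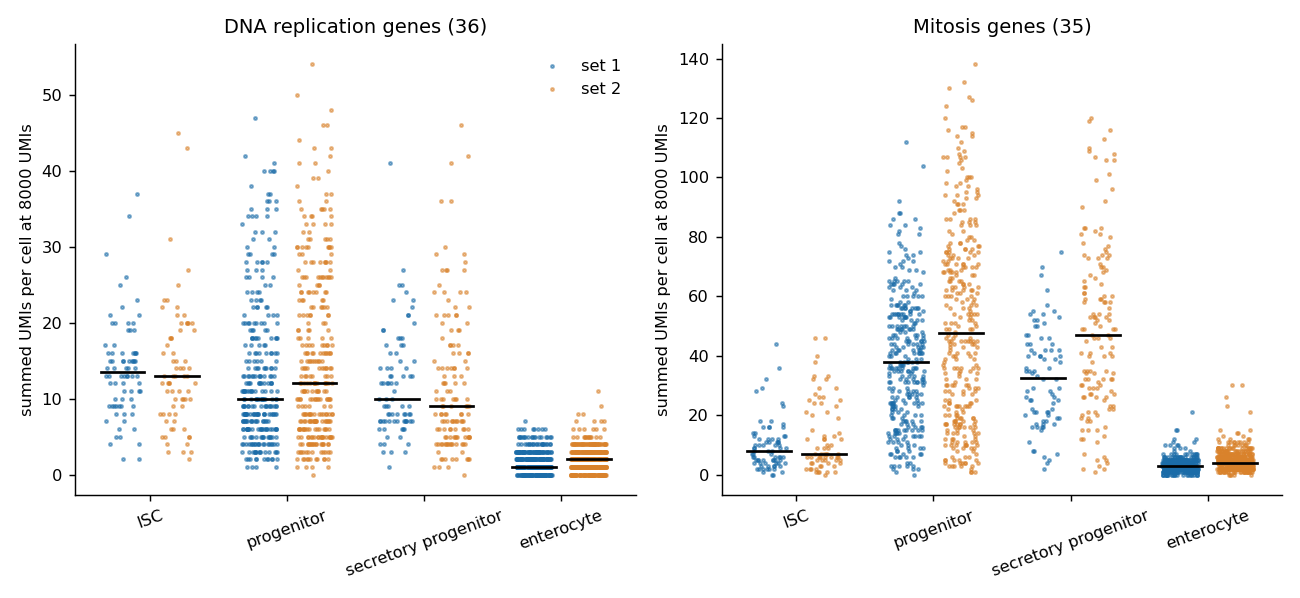
Summed UMIs per cell of 36 DNA replication genes (left) and 35 mitosis genes (right) in ISC cells, progenitors, secretory progenitors and enterocytes, each cell thinned to 8000 UMIs and shallower cells left out; points are cells, black lines are medians, set 1 is blue and set 2 is orange. ISC medians are 13.5 and 13 for DNA replication and 8 and 7 for mitosis, against 10 and 12, and 38 and 47.5, in progenitors.

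Among the 10 genes furthest below progenitors were Spag5, Anln, Aurkb, Aurka, Kif2c, Prc1, Esco2, Kif11 and Ckap2l, all of the division machinery. Each of these had 0 to 13 UMIs in the ISC cells of a library, so they passed the filter on low counts through progenitors. Spag5, a spindle protein, had 1 UMI in each library, and its ratio to progenitors was 0.0338 (0.000849 to 0.191) in set 1 and 0.0275 (0.000694 to 0.154) in set 2. Aurkb, the kinase that corrects chromosome attachment, had 1 UMI in set 1 and 4 in set 2 against 42.3 and 55.9 CPM in progenitors.

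Of 11 cell cycle inhibitors measured against progenitors, 5 were lower, 0 were higher and 6 were not called. The 5 were Cdkn1a, Cdkn2b, Cdkn2c, Cdkn2d and Rb1. Of all genes measured against progenitors, 3.36% were lower. Cdkn1a, which encodes p21, had 11.6 and 22.1 CPM in ISC cells, 41.8 and 46.5 CPM in progenitors and 105 and 102 CPM in all other annotated cells. Cdkn2b had 3.31 and 9.65 CPM in ISC cells against 48.9 and 73.5 CPM in progenitors. In set 1 it passed the filter on low counts only through progenitors and could only be called lower. The count of 5 is read with that limit. Trp53, which encodes the tumour suppressor p53, had 119 and 124.7 CPM, 2.57-fold and 2.09-fold above other annotated cells, and was not called against progenitors with ratios of 1.25 and 1.06.

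The 10 genes furthest above progenitors were Tubb2b, Lgr5, Phlda1, Igfbp4, Pdgfa, Soat1, Rgcc, Agr3, Marcksl1 and Ifitm3. Tubb2b, a beta-tubulin, had 41.4 and 35.2 CPM against 8.29 and 7.42 CPM in progenitors, 5.00-fold and 4.74-fold higher. Phlda1, a pleckstrin homology protein of the crypt, was 5.26-fold and 4.18-fold higher, yet 3 other clusters were above ISC cells in each library. Pdgfa was 3.90-fold and 5.02-fold higher and Ifitm3 3.16-fold and 3.17-fold. Of the stem cell list, 9 of 19 measured members were higher than in progenitors and 0 were lower, with a median log2 ratio of 1.03 and 1.20. The shares of all genes above, 0.527% and 3.36%, are the background for these counts.

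**Figure D4:**
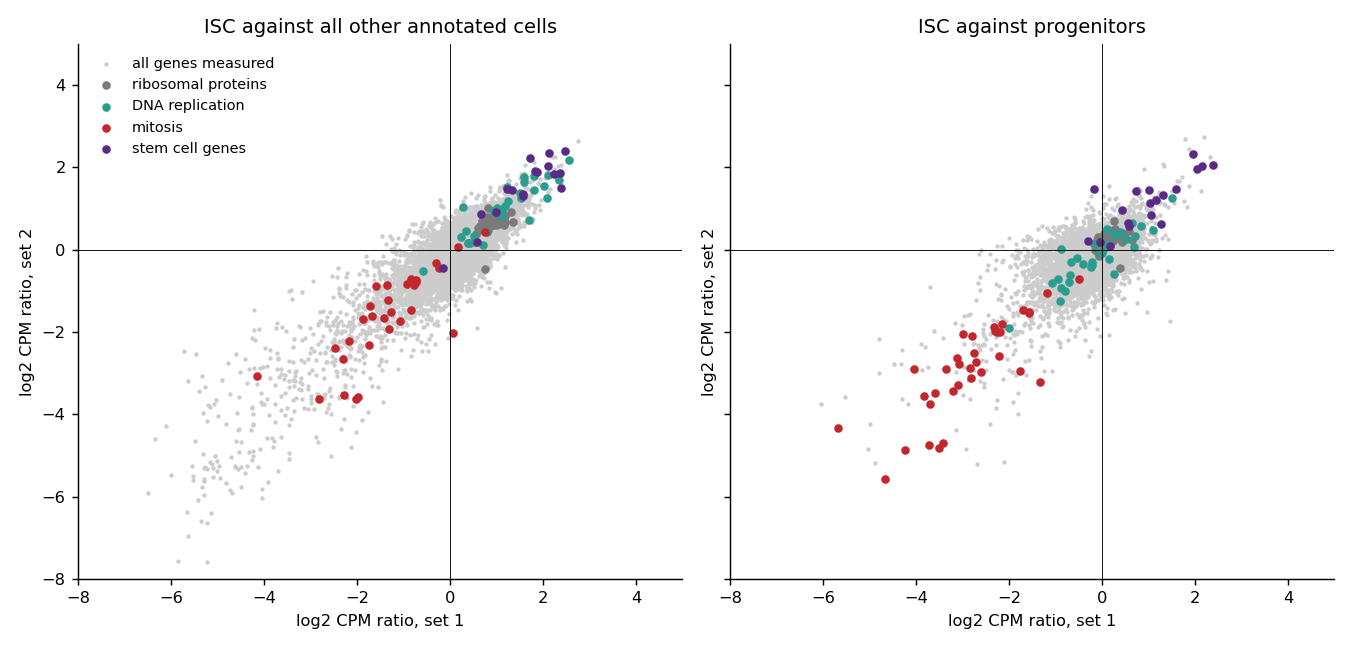
Log2 CPM ratio of ISC cells in set 1 (x axis) and set 2 (y axis) against all other annotated cells (left) and against progenitors (right), for every measured gene (light grey) with 4 lists coloured. Most stem cell genes lie at the upper right in both panels (medians 1.73 and 1.51 on the left, 1.03 and 1.20 on the right), DNA replication genes centre near 0 only on the right (medians -0.03 and -0.09), and mitosis genes lie at the lower left on the right (medians -2.82 and -2.89).

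Genes of protein synthesis had their highest summed CPM in ISC cells. Ribosomal protein genes summed to 339557 CPM in set 1 and 275602 CPM in set 2, above progenitors at 299287 and 222340 CPM and above every other cluster. Per gene, 0 of 81 measured members passed 2-fold in both libraries. The median log2 ratio to other annotated cells was 0.91 and 0.69, beside 0.21 and 0.00 for all measured genes. Paneth cells, a part of that pool, had the lowest sums, 31262 and 64060 CPM. Against progenitors the median was 0.18 and 0.30, beside -0.18 and -0.16 for all measured genes. Ribosomal protein genes have many near-identical pseudogenes, which can split their UMIs. Ribosome biogenesis genes had 8 of 27 measured members higher and 0 lower, among them the nucleolar proteins Npm1 (1759 and 1975 CPM, 3.37-fold and 2.71-fold), Ncl (2.74-fold and 2.17-fold) and Fbl (3.08-fold and 2.38-fold). With TMM scaling 3 were higher. Against progenitors 0 of 34 were called, with a median of 0.13 and 0.09. Of 32 translation factors, Eif3e alone was higher than in other annotated cells. Of all genes, 2.59% were higher and 7.96% lower than in other annotated cells, and 0.527% and 3.36% against progenitors. At those shares, 1 call among translation factors and 0 calls against progenitors are no result about these lists.

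Energy metabolism differed little. Of 79 measured nuclear genes of oxidative phosphorylation, 0 were higher and 1, Cox7a1, a cytochrome c oxidase subunit, was lower than in other annotated cells. Of 15 glycolysis and pyruvate genes, 0 were higher and 1, the phosphofructokinase Pfkp, was lower. These counts stand beside 2.59% of all genes higher and 7.96% lower.

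Class II antigen presentation genes are carried by epithelial cells under interferon signals. Of 6 measured members, 1 was higher than in other annotated cells and 0 were lower, with the same count against progenitors. Of all genes, 2.59% were higher and 7.96% lower than in other annotated cells, and 0.527% and 3.36% against progenitors. With 1 gene called, this is no result about the list as a whole. H2-Eb1, a class II beta chain, had 99.4 and 68.9 CPM in ISC cells, 3.46-fold and 3.22-fold above other annotated cells and 2.83-fold and 2.68-fold above progenitors. The other 5 measured members, among them H2-Aa and the invariant chain Cd74, did not reach 2-fold in both libraries. The median of the list was 0.69 and 0.62. Summed over the list, ISC cells had 3200 and 2680 CPM and enterocytes 4219 and 2714 CPM. Leukocyte markers summed to 103 and 30.3 CPM in ISC cells, the lowest of the 8 clusters in both libraries, with Ptprc at 0 and 2 UMIs.

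Immediate early genes, which respond within minutes to stimuli and stress, had 7 of 14 measured members lower than in other annotated cells and 0 higher. The shares of all genes were 7.96% lower and 2.59% higher. Fos had 29.8 and 15.9 CPM against 88.0 and 161 CPM, and Atf3 had 3.31 and 3.45 CPM against 22.7 and 41.0 CPM. Against progenitors 0 of 11 were called. Goblet cells and EEC held the highest sums of this list, 2406 and 2898 CPM and 2336 and 2784 CPM.

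Markers of the mature lineages had low levels in ISC cells. Enterocyte markers summed to 1987 and 1347 CPM against 18571 and 10717 CPM in other annotated cells, goblet markers to 836 and 979 CPM against 22556 and 35631 CPM, EEC markers to 34.0 and 20.7 CPM against 1684 and 1532 CPM, and tuft markers to 2.49 and 5.51 CPM against 131 and 68.0 CPM. Most of these genes pass the filter on low counts through the cluster where they are high, so no count of calls is drawn from them. Against progenitors 5 of 15 measured enterocyte markers, 0 of 8 goblet markers, 0 of 10 Paneth markers and 0 of 1 EEC marker were lower, beside 3.36% of all genes, so progenitors also had low levels of most. The 20 genes furthest below other annotated cells include Chgb, Gip, Gcg, Sct and Cck (hormones and granule proteins), Zg16, Clca1 and Itln1 (secretory products), Defa21, Defa22 and other alpha-defensin entries, Lyz1, Mptx2, Ccl9, Guca2a, Clps and Apoa1. Apoa1, an apolipoprotein of enterocytes, had 43.1 and 22.7 CPM against 1693 and 1086 CPM. Alpha-defensin genes are near-identical copies, so UMIs cannot be assigned among them with certainty. Among lineage transcription factors, Klf4 had 10.8 and 13.8 CPM against 52.9 and 111 CPM and Maf had 4.97 and 5.51 CPM against 67.9 and 74.7 CPM. Foxa3, a factor of secretory cells, had 29.0 and 27.6 CPM, 4.37-fold and 2.70-fold above progenitors and well under the 173 and 171 CPM of goblet cells.

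Paneth markers differed between the libraries. ISC cells summed to 8478 CPM of the Paneth list in set 1 and 1128 CPM in set 2, and enterocytes to 4397 and 591 CPM. At 8000 UMIs the median ISC cell had 30 Paneth UMIs in set 1 and 7 in set 2, near the 33 and 5 of enterocytes. The range in set 1 ran up to 1245 UMIs in 1 cell, and 10 of 78 cells had at least 50, beside 44 of 406 enterocytes and 35 of 330 progenitors. Whether those cells are doublets was not tested.

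Genes linked to reserve or regenerating stem cells were sparse. Of 10 genes listed, Hopx, Krt19 and Msi2 could be measured, and Hopx, a homeodomain protein of a slowly dividing crypt cell, had 29.8 and 185 CPM, 2.75-fold and 2.33-fold above other annotated cells. ISC cells were the third cluster in order for Hopx in both libraries. Tert, the telomerase catalytic subunit, had 0 UMIs in ISC cells of either library. Ly6a, a marker of regenerating epithelium, had 3 UMIs in set 1 and 0 in set 2.

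**Figure D5:**
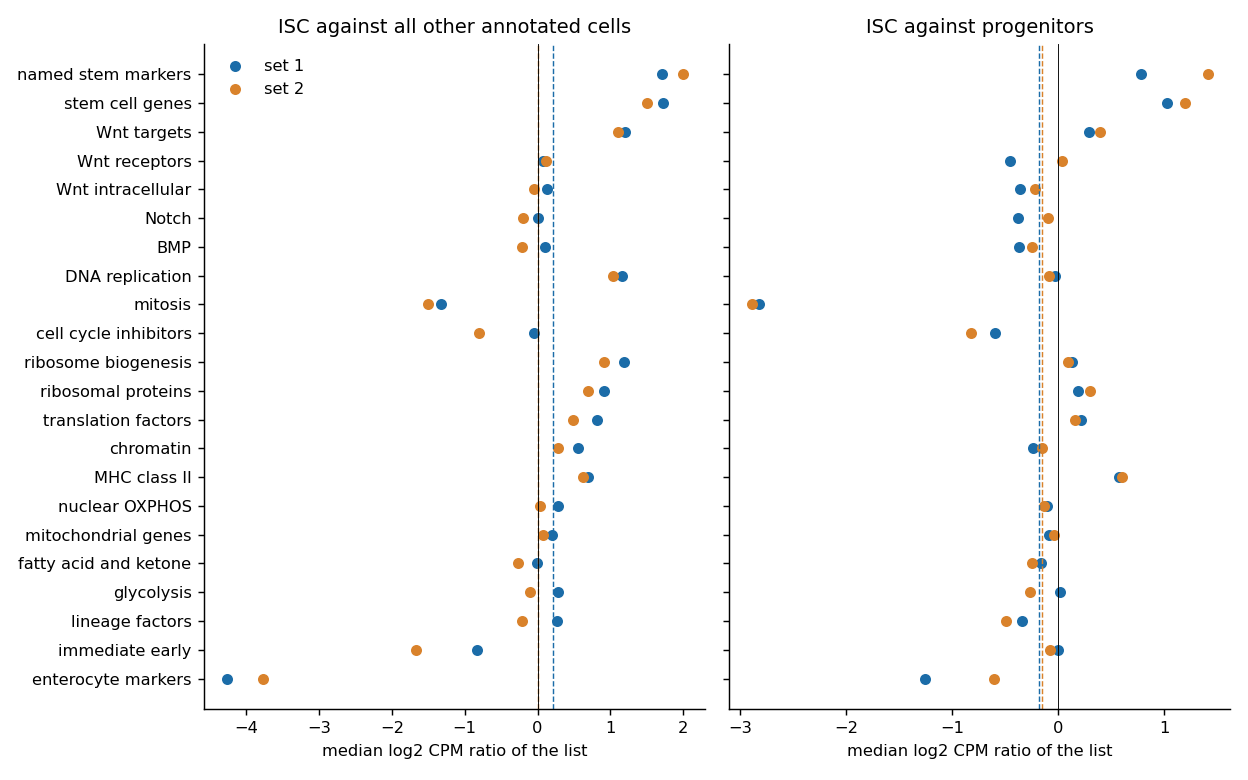
Median log2 CPM ratio of the measured members of 22 gene lists (y axis) in ISC cells against all other annotated cells (left) and against progenitors (right), set 1 in blue and set 2 in orange; dashed lines are the medians of all measured genes. Stem cell genes stand at 1.73 and 1.51 on the left and 1.03 and 1.20 on the right, and mitosis genes at -2.82 and -2.89 on the right.

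The other libraries of the series are small RNA libraries, so genes that host microRNAs inside their span were listed too. Of 19 measured hosts, Mcm7 and Rcl1 were higher than in other annotated cells and Pde2a was lower. Against progenitors 1 of 18 measured, Smc4, was lower, with 29.0 and 60.0 CPM against 143 and 236 CPM. With 2.59% of all genes higher and 7.96% lower against other annotated cells, and 3.36% lower against progenitors, these few calls say nothing particular to hosts. The mature microRNAs of the called hosts are printed to show which ones they carry, since the UMIs count the host transcript and not the microRNA. Sequences are from RefSeq on GRCm38.p6, 5′ to 3′, with the seed (bases 2 to 8) in capitals.
miR-106b-5p: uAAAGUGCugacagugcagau
miR-93-5p: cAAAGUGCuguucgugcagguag
miR-25-3p: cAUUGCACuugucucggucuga
miR-101b-3p: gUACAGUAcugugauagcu
miR-139-5p: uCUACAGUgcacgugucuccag
miR-15b-5p: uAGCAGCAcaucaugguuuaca
miR-16-5p: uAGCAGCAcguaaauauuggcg

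The first 3 lie within Mcm7 on the minus strand at chr5:138165787-138165807, chr5:138165574-138165596 and chr5:138165332-138165353, and miR-106b-5p and miR-93-5p share a seed. Mcm7 had 73.7 CPM in set 1 and 98.6 CPM in set 2, 3.00-fold and 3.12-fold above other annotated cells and 1.20-fold and 1.31-fold above progenitors. Rcl1, a nucleolar protein of ribosome assembly that hosts miR-101b-3p at chr19:29135338-29135356 on the plus strand, was 2.77-fold and 2.09-fold higher. Pde2a, a cyclic nucleotide phosphodiesterase that hosts miR-139-5p at chr7:101475382-101475403 on the plus strand, had 0 UMIs in the ISC cells of both libraries. That is at least 3.61-fold and 6.70-fold lower than other annotated cells, taking 3 counts per library as the floor. Pde2a thus passed the filter on low counts only through those other cells. Pde2a was highest in tuft cells, with 96.4 and 80.8 CPM. The pair miR-15b-5p and miR-16-5p, at chr3:69009775-69009796 and chr3:69009918-69009939 on the plus strand, share a seed and lie within Smc4, a condensin subunit of the mitosis list.

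Variation among ISC cells was examined at 2000 UMIs per cell, with 78 cells in each library. A variance to mean ratio of 1 is what counting error gives, and the median gene with a mean of at least 0.1 UMIs had 1.03 in both libraries. In all, 19 genes had a ratio of at least 2 in both libraries. The 15 leading genes included 6 mitochondrial genes, headed by mt-Atp6 with 5.05 in set 1 and 6.25 in set 2, and the mitochondrial share of single ISC cells ranged from 2.21% to 13.5% and from 0.186% to 14.7%. They also included products of other lineages: the antimicrobial lectins Reg3b (41.3 and 5.40) and Reg3g (18.6 and 4.62), Spink4 (4.20 and 4.09), Tff3 (2.59 and 8.22) and Defa24 (59.1 and 2.39). Reg3b had a median of 0 UMIs per ISC cell and a maximum of 45 and 20. The remaining 4 were Malat1, a nuclear non-coding RNA (3.08 and 3.54), the galectin Lgals2 (4.39 and 2.92), Ifitm3 (2.58 and 2.87) and the keratin Krt8 (3.17 and 2.51). Ifitm3 thus had the leading ratio among measured genes and also varied among ISC cells, from 0 up to 11 UMIs per cell at this depth with medians of 2 and 1.

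The ISC cells of the libraries differed beyond counting error. The chi-square of their summed counts was 15.7 per degree of freedom over 9019 genes. Of 7519 genes compared, 891 (11.8%) were at least 2-fold apart, 78 were at least 4-fold higher in set 1 and 47 were at least 4-fold higher in set 2. Defensins and ribosomal protein entries such as Rps18 (2068 and 143 CPM) were among those higher in set 1, and Olfm4 among those higher in set 2. For Rps18 the log2 difference of set 2 to set 1 was -3.85 in ISC cells and -3.58 in the other annotated cells, and for Olfm4 it was 3.86 and 3.16. For others the remaining cells moved less, with -5.94 and -2.90 for the heat shock gene Hspa1a and -3.35 and -1.57 for Defa24. Each ratio above was taken within a library.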

How the data were processed

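Raw UMI counts per gene and barcode were deposited by the authors for both libraries. Per the labels, libraries were made with 10X Genomics Chromium chemistry. Build mm9 is given in the submitters' processing notes. The header of the set 2 matrix gives software version 3.0.1. No source used here names the aligner, the cell filters or the clustering method. No doublet caller was run.

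Annotated cells were matched by library and barcode, and 1144 of 1209 barcodes in set 1 and 1470 of 7711 in set 2 carried a cluster name. Counts of 27998 genes were summed per cluster and library and divided by total UMIs. Zero counts were set to 3 counts in ratios, which are then bounds. Intervals were exact Poisson for CPM, exact conditional binomial for ratios and exact (Clopper-Pearson) binomial for shares, all at 95%. Named genes were the 20 highest and 20 lowest against other annotated cells and the 10 each way against progenitors, ranked by the less extreme library, the 15 most variable, and members of 35 gene lists. The members and lists were chosen with earlier results of these data known. On counts simulated with counting error only, 94% to 100% of 4-fold and 8-fold changes were recovered. Changes near the 2-fold line were not simulated, so their recovery is not known.

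Alternatives used TMM factors from edgeR 4.0.16 and size factors from DESeq2 1.42.0, in R 4.3.3. Other steps used Python 3.11.15 with numpy 2.4.6, pandas 2.3.3 and scipy 1.17.1. Small RNA libraries of sorted populations are not analysed here. Some genes that the naming rule selects are not reported here.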

Additional observations from a re-analysis of the deposited data

Results flagged for a closer look

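Barcodes without a cluster name, which enter none of the comparisons, also held UMIs of the stem cell markers. The 65 such barcodes of set 1, with a median of 11041 UMIs, held 4 UMIs of Lgr5, 7 of Ascl2, 21 of Smoc2 and 11 of Axin2. The 6241 such barcodes of set 2, with a median of 1738 UMIs, held 121 UMIs of Lgr5, 71 of Ascl2, 330 of Smoc2 and 365 of Axin2. For Lgr5 that is 4.92 CPM in set 1 and 5.39 CPM in set 2, above enterocytes at 0.157 and 0.196 CPM and below ISC cells at 34.0 and 64.1 CPM. In set 2 the unnamed barcodes held more Lgr5 UMIs than the 93 of the named ISC cells, in 49 barcodes. Whether these barcodes are cells was not tested.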

How the results depend on the processing

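No paired analysis was possible because no result comes from a test between groups of samples. The 184 genes higher than in other annotated cells became 89 with TMM factors, 109 with DESeq2 size factors, 69 at 30 expected UMIs, 717 with no filter, 863 at a fold of 1.5, 23 with cells thinned to 2000 UMIs, 104 against the mean of the other clusters and 116 with Paneth cells left out. The 565 lower genes became 307, 942 and 224 at 30 expected UMIs, a fold of 1.5 and 2000 UMIs. Against progenitors, the 40 higher genes became 9 at 30 expected UMIs, 204 with no filter, 126 at a fold of 1.5 and 4 at 2000 UMIs, and the 255 lower genes became 112, 407, 721 and 53. With 1 library in place of both, these counts ran from 320 to 609, 756 to 981, 90 to 103 and 543 to 619, since 1 ratio then decides a call. The median log2 ratio of the 4 markers was 2.13, ran from 1.91 to 2.34 with 1 library, and was 1.55 against the mean of the other clusters. Genes variable among ISC cells numbered 19 at 2000 UMIs and 86 at 8000. The ISC share was 5.44 to 6.82% with 1 library. Of the gene lists, 14 had a median ratio above 1 in both libraries, against 10 to 20 under the alternatives. The median of the Paneth list turned from negative to 0.068 with Paneth cells left out. The median log2 ratio of all genes against other annotated cells moved by -0.25 with TMM factors and by -0.23 with Paneth cells left out. Leaving Paneth cells out and using 8000 UMIs per cell were chosen after seeing the data. Depth limits genes such as Lgr5 and Ascl2, and low counts were not read as absence.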
